A study of Sus scrofa with 16 samples.

Results

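Endothelial and pericyte genes were followed in 2 skeletal muscles of the pig, the psoas major beside the lumbar spine and the diaphragm that drives breathing. The genes were PECAM1, CDH5, ESAM, VWF, EPAS1, RGS5 and CD34, 7 of the 6765 genes that the annotation of the array pairs with a probe set of their own. They were chosen by name, with earlier results of these data known. Every probe set whose single gene symbol was one of these 7 was included, which gave 13 probe sets. The animals were 8 Iberian pigs, a fat Mediterranean breed, all 211 days old at slaughter. There were 4 pigs under 20% feed restriction and 4 at the high feeding level, and each feeding level held 2 females and 2 males. Animals 5 and 8 were restricted females, 2 and 3 restricted males, 6 and 7 high-fed females, and 1 and 4 high-fed males. All had been fed the same pellets before the restriction, but the labels state neither when it began nor whether the males were castrated. Each pig gave 1 array of psoas and 1 of diaphragm, so that the 16 arrays are paired by animal.

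Blood vessels of muscle are tubes of endothelial cells, and the smallest of them are wrapped by pericytes, contractile cells that sit in the same basement membrane. Endothelial cells hold to each other through junction proteins, present receptors to blood cells and respond to oxygen. Muscles that work steadily, such as the diaphragm, are generally supplied with a dense capillary bed. PECAM1, CDH5 and ESAM code for adhesion proteins of endothelial junctions, VWF for a secreted clotting protein, EPAS1 for an oxygen-regulated transcription factor, RGS5 for a signalling regulator of pericytes and CD34 for a surface sialomucin.

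Values are the deposited log2 expression values, on which a difference of 1 is a doubling, and a probe set was tested where at least 4 of the 16 arrays reached 4. Of the 13 probe sets, 10 were tested and covered all 7 genes. The other 3, of which 1 is assigned to ESAM and 2 to VWF, stayed near background with maxima of 2.97, 2.22 and 2.65. Of the tested ones, 9 lay above 4 in all 16 arrays, and the one of EPAS1 in 15. PECAM1, CDH5 and ESAM each had a pair of tested probe sets, and the one with the higher mean stands for the gene. Array medians ranged over 3.56 to 3.62. The log2 difference between 3′ and 5′ control probe sets of actin, which is larger in more degraded RNA, averaged 3.45 ± 0.25 in psoas and 3.81 ± 0.45 in diaphragm (SD, n = 8 each). The diaphragm arrays fell into 2 sets by this measure, with 4.07 to 4.33 in animals 1, 2, 3 and 5 and 3.35 to 3.49 in animals 4, 6, 7 and 8. The 2 psoas arrays with the highest values were those of animal 7, at 3.85, and animal 5, at 3.71.

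By the probe set that stands for each gene, all 7 genes had lower values in psoas than in diaphragm in 8 of 8 animals. Of the 7, 6 passed the test, with EPAS1 as the exception. Differences ranged from 1.25-fold for CD34 to 1.84-fold for PECAM1. The second tested probe sets of CDH5 and ESAM were lower in psoas in 5 of 8 animals each and were not called. The share of all tested genes lower in 8 of 8 animals is not given here. Across the array 12.2% of the 4571 tested genes were called lower in psoas and 17.3% higher, and the median difference of all genes was 0.04. The 7 genes were chosen with earlier results known, so these shares are a background and no test of the set. The median over the 7 genes was -0.70 on the log2 scale. Here and below a gene is called at an adjusted p under 0.05, from limma with Benjamini-Hochberg adjustment over all 11467 tested probe sets. The fits between the muscles had no term for the animal, unless a block is named, so their SE and p do not use the pairing. Lower values of a cell type's genes in a whole muscle may be fewer such cells or less RNA per cell, which these bulk samples cannot tell apart.

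The 3 junction genes were all called lower in psoas. PECAM1, an adhesion molecule of endothelial borders that leukocytes and platelets also carry, had a lowest, median and highest value of 7.81, 8.32 and 8.81 in psoas, against 8.91, 9.27 and 9.63 in diaphragm. Every psoas array lay below every diaphragm array, and the psoas minus diaphragm difference was -0.88 ± 0.14 (SE; adjusted p = 0.000482). CDH5 codes for VE-cadherin, the cadherin of endothelial adherens junctions. It measured 7.66, 8.23 and 8.40 in psoas (lowest, median and highest), against 8.65, 8.81 and 9.05 in diaphragm. Here too the muscles did not overlap, and CDH5 was 1.62-fold lower in psoas (-0.70 ± 0.11 SE; adjusted p = 0.000681). ESAM, an immunoglobulin-type adhesion protein of endothelial tight junctions, ran from 5.86 over a median of 6.20 to 6.42 in psoas, against 6.36, 6.71 and 6.93 in diaphragm. The highest psoas array of ESAM, that of animal 8, lay just above the lowest diaphragm array, that of animal 5. Its difference was -0.52 ± 0.10 (SE; adjusted p = 0.0022), or 1.43-fold.

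VWF, the glycoprotein that endothelium stores and releases to bind platelets, had 7.40, 7.75 and 8.46 in psoas (lowest, median and highest), against 8.10, 8.76 and 9.26 in diaphragm. The ranges overlapped, since the psoas arrays of the females 6, 7 and 8 lay at 8.15 to 8.46 and the diaphragm arrays of animals 1 and 5 at 8.16 and 8.10. Within animals the difference ran from -1.19 to -0.35, and VWF was called 1.78-fold lower in psoas (-0.83 ± 0.17 SE; adjusted p = 0.0028). EPAS1 codes for HIF-2α, the hypoxia-inducible factor subunit that is abundant in endothelium. It measured 3.94, 5.90 and 6.17 in psoas, against 5.76, 6.35 and 6.99 in diaphragm. The lowest psoas value belonged to animal 7 alone, and the other 7 psoas arrays lay within 5.74 to 6.17. The difference of -0.68 ± 0.26 (SE) did not pass the threshold (adjusted p = 0.0659). Without animal 7 it was smaller, at -0.39, and passed (adjusted p = 0.0297).

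RGS5, a regulator of G protein signalling and a common marker of pericytes, had 9.83, 10.60 and 10.87 in psoas (lowest, median and highest), against 10.95, 11.13 and 11.60 in diaphragm. All psoas arrays lay below all diaphragm arrays, with a difference of -0.71 ± 0.16 (SE; adjusted p = 0.0052) or 1.63-fold. PECAM1, CDH5 and RGS5 were thus the 3 genes without overlap between the muscles, a pattern shown in this direction by 1.95% of all tested genes. CD34, a sialomucin of endothelium, blood progenitors and interstitial cells of connective tissue, was measured at 4.87, 5.21 and 5.24 in psoas, against 5.18, 5.38 and 6.002 in diaphragm. The psoas arrays of 5 animals lay above the lowest diaphragm array, that of animal 2, and the diaphragm of animal 1 stood highest. The difference was -0.32 ± 0.11 (SE; adjusted p = 0.0449), the smallest of the 7 genes. The call of CD34 was lost without any 1 of animals 1 to 6 (adjusted p 0.0527 to 0.112) and with actin RNA quality as a covariate (0.195).

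**Figure D1:**
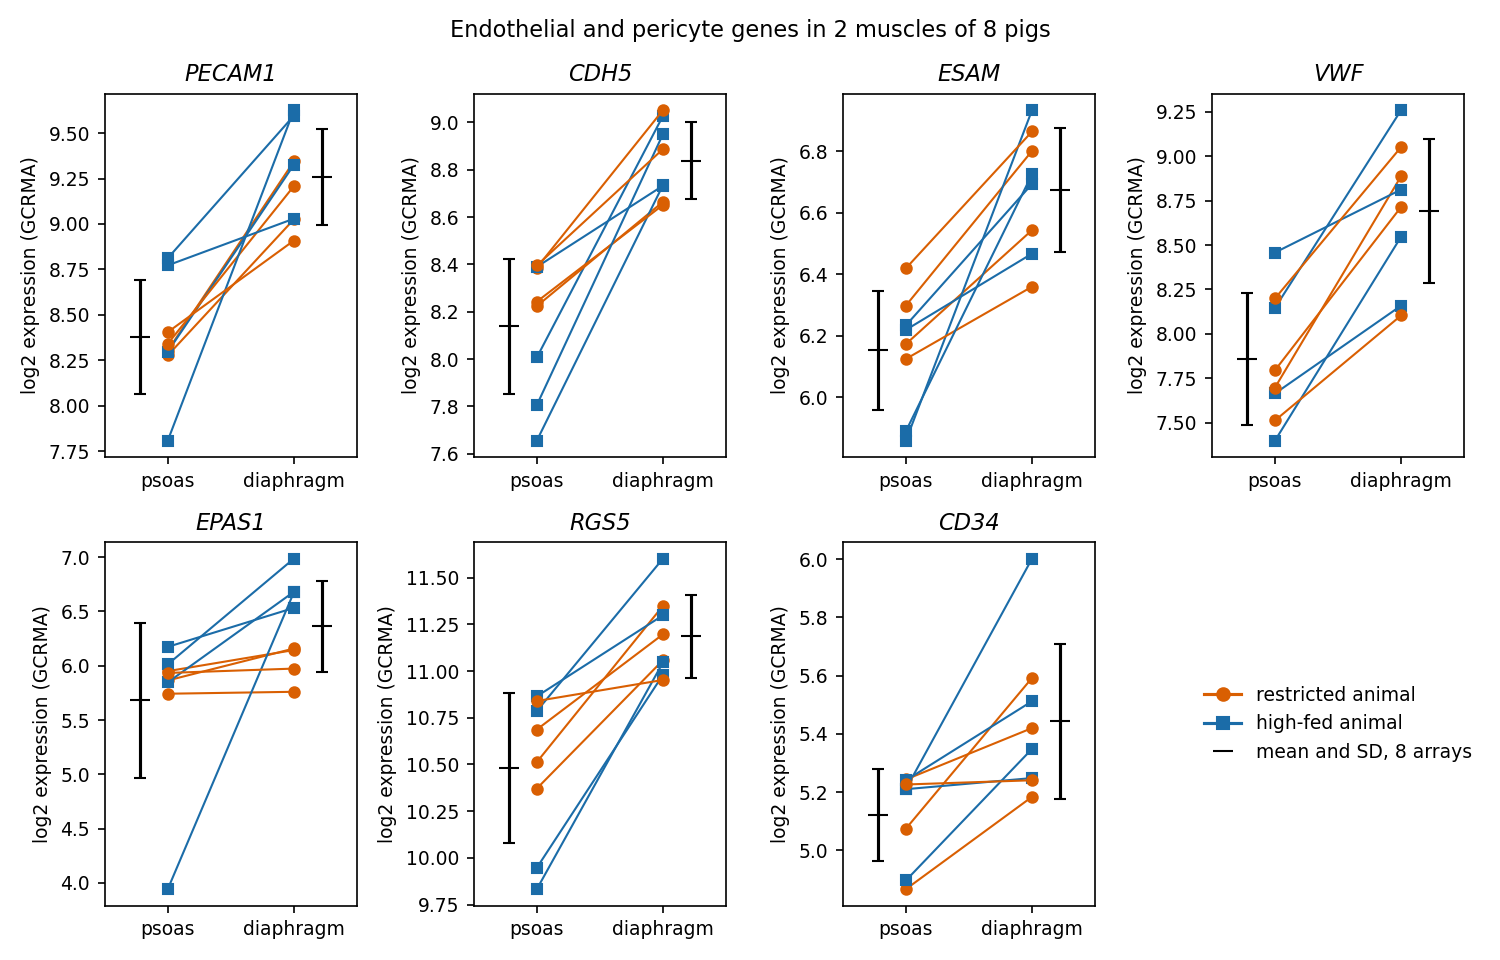
Log2 expression of the 7 genes (vertical axis, a scale of its own in each panel) in psoas, left, and diaphragm, right. Each line joins the 2 arrays of 1 animal, circles are restricted and squares high-fed animals, and bars give the mean and SD of 8 arrays. All lines run upward to diaphragm, and the EPAS1 panel has 1 psoas array, that of animal 7, at 3.94.

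The plot of values by muscle shows this pairing within animals. PECAM1 averaged 8.38 ± 0.31 in psoas and 9.26 ± 0.27 in diaphragm, CDH5 8.14 ± 0.29 and 8.84 ± 0.16, and RGS5 10.48 ± 0.40 and 11.19 ± 0.22, psoas before diaphragm in each case (SD, n = 8 arrays each). The spread between animals was wider in psoas than in diaphragm for PECAM1, CDH5, EPAS1 and RGS5, and wider in diaphragm for ESAM, VWF and CD34. None of these spreads was tested against the other.

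The second probe sets did not all follow the first. The second set of PECAM1 ranged over 7.15 to 8.26 in psoas, against 7.96 to 9.05 in diaphragm, and was called with a difference of -0.83 ± 0.15 (SE; adjusted p = 0.0015). The second set of CDH5, which by its array name matches several transcripts of 1 gene, ranged over 5.05 to 6.21 in psoas, against 4.90 to 6.89 in diaphragm. It was not called (-0.26 ± 0.26 SE; adjusted p = 0.477). The second set of ESAM, of a class whose probes can match more than 1 transcript, ranged over 4.75 to 6.33 in psoas, against 5.48 to 6.57 in diaphragm. It was not called either (-0.23 ± 0.18 SE; adjusted p = 0.366). Of the 10 tested probe sets 7 were called lower in psoas, against 12.4% of all tested probe sets.

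These 2 uncalled probe sets moved with the RNA quality measure. In diaphragm the second set of CDH5 had 5.78, 5.17, 5.64 and 4.90 in animals 1, 2, 3 and 5, whose actin difference was high, against 6.38, 6.30, 6.89 and 6.48 in animals 4, 6, 7 and 8. The second set of ESAM had 5.98, 5.48, 5.98 and 5.58 in animals 1, 2, 3 and 5, against 6.57, 6.19, 6.43 and 6.19 in animals 4, 6, 7 and 8. For neither did the diaphragm arrays of the 2 sets of animals overlap. The share of all probe sets with such a split was not counted, so it cannot be called particular to these 2. The sets of animals also differ in feeding level. Animals 2, 3 and 5 were restricted and 1 was high-fed, while 4, 6 and 7 were high-fed and 8 was restricted. In psoas the 2 lowest arrays of both probe sets, and of EPAS1, were those of animals 5 and 7. The part of RNA quality in these values was not tested. For the first probe sets, a fit with the actin difference as a covariate called 6 of the 7 genes between the muscles, EPAS1 among them (-1.03; adjusted p = 0.00926) and CD34 not. The share of all probe sets called with that covariate is not given here. Restricted to animals 4, 6, 7 and 8, the fit called VWF alone, 1 of the 7, where 3.53% of all probe sets were called. The differences in these 4 animals were -0.90 for PECAM1, -0.76 for CDH5, -0.65 for ESAM, -0.70 for RGS5, -1.15 for EPAS1 and -0.19 for CD34. With animals 1, 2, 3 and 5 it called 5, where 19.7% of all probe sets were called, with -0.86 for PECAM1, -0.63 for CDH5, -0.39 for ESAM, -0.71 for RGS5, -0.22 for EPAS1 and -0.45 for CD34. Since the 2 sets of animals also differ in feeding level, RNA quality and feeding cannot be told apart in these values. This split of animals rests on the diaphragm arrays alone. In animals 4 and 7 the actin difference was higher in psoas, at 3.56 and 3.85, than in diaphragm, at 3.37 and 3.35. The part of RNA quality in the muscle differences was not tested.

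Animals differed in the size of the step between muscles. For PECAM1 the psoas minus diaphragm differences of animals 1 to 8 were -0.78, -0.75, -1.04, -1.03, -0.87, -0.26, -1.82 and -0.50. For CDH5 they were -1.02, -0.44, -0.67, -1.08, -0.41, -0.34, -1.14 and -0.49. For RGS5 they were -0.82, -0.51, -0.84, -1.03, -0.69, -0.43, -1.21 and -0.11. In all 3 genes animal 7 had the most negative difference and animal 4 was among the 3 most negative. Over the 7 genes the median difference was -1.14 in animal 7 and -1.03 in animal 4, both high-fed, and -0.34 in animal 6, also high-fed. Animals 4 and 7 were also the only ones with a higher actin difference in psoas (3.56 and 3.85) than in diaphragm (3.37 and 3.35). The part of RNA quality in the size of the step was not tested. Animal 7 had the most negative difference for 4 of the 7 genes, and animals 1, 3 and 4 for 1 each.

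ESAM had differences of -0.46, -0.37, -0.50, -1.07, -0.23, -0.25, -0.83 and -0.44 in animals 1 to 8, with animal 4 lowest. VWF had -0.49, -0.92, -1.19, -1.15, -0.59, -0.35, -1.11 and -0.85, with animals 3, 4 and 7 all past -1. EPAS1 was the most uneven, with -0.36, -0.19, -0.29, -0.97, -0.02, -0.83, -2.74 and -0.04, so that animals 5 and 8 had nearly equal values in both muscles. CD34 had -0.79, -0.32, -0.52, -0.45, -0.18, -0.27, -0.04 and -0.01. Its differences in animals 7 and 8 were close to 0, and animal 7, extreme for EPAS1, was not so for CD34.

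**Figure D2:**
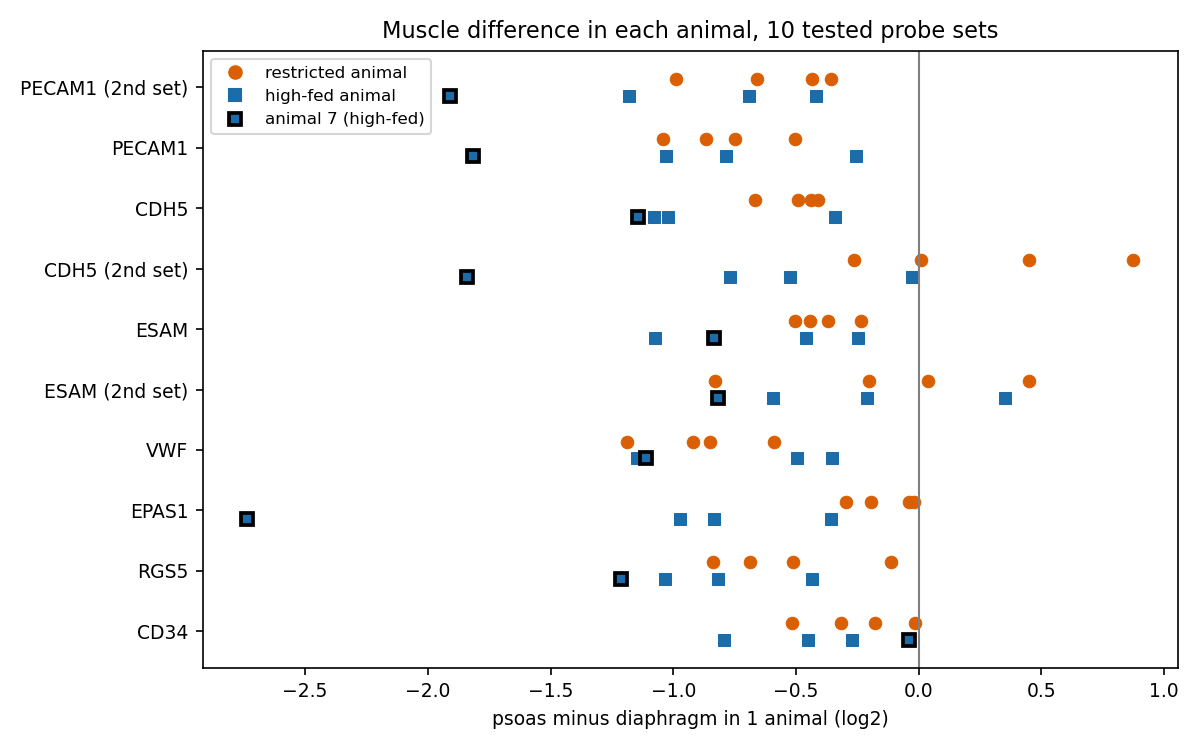
Psoas minus diaphragm difference (log2, horizontal axis) in each animal for the 10 tested probe sets; circles are restricted animals, squares high-fed animals, and outlined squares animal 7. The probe sets that stand for the 7 genes lie left of 0 in all 8 animals, while the second sets of CDH5 and ESAM have animals on both sides of 0.

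Other endothelial genes were taken from a list of 53, also chosen with earlier results of these data known. Of these, 35 were on the array and 22 were tested. Among the 22, 15 were called lower in psoas and none higher, with a median difference of -0.46. Of the 15 called genes 12 were lower in 8 of 8 animals. The 4 with the smallest adjusted p were ERG, an endothelial ETS transcription factor, ICAM1, a leukocyte adhesion receptor, TM4SF1, a surface protein of endothelium, and GJA5, the connexin of arterial endothelium. ERG averaged 6.51 ± 0.21 in psoas and 7.37 ± 0.39 in diaphragm (SD, n = 8 each), a difference of -0.86 ± 0.12 (SE). ICAM1 differed by -0.71 ± 0.11, TM4SF1 by -0.62 ± 0.10 and GJA5 by -0.83 ± 0.13 (log2 ± SE; adjusted p 0.000196 to 0.000624). With animals 4, 6, 7 and 8 alone 4 of the 22 genes were called, and with animals 1, 2, 3 and 5 alone 8. The VEGF receptor genes KDR and FLT1 did not reach 4 in any array, with maxima of 2.32 and 3.94, and were not tested. Of 3 lymphatic endothelial genes tested, 1 was called lower, LYVE1, the hyaluronan receptor of lymphatic vessels (-0.44), with 7 of the 8 psoas arrays below 4.

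Mural genes, which pericytes and vascular smooth muscle express, were mixed. Of 11 tested 3 were called lower in psoas and 1 higher, with a median of -0.13. The 11 include DES and TPM2, which are not specific to mural cells. DES averaged 12.67 in psoas and 12.64 in diaphragm, and TPM2 15.26 and 15.18. How far these 2 report mural cells in whole muscle was not tested. CALD1, the actin-binding caldesmon, differed by -0.60, RGS4, a relative of RGS5, by -0.54 with 7 psoas arrays below 4, and HIGD1B, a marker of pericytes in mouse, by -0.29. CNN1, a calponin of smooth muscle, was higher in psoas by 2.08. PDGFRB, the receptor that recruits pericytes, averaged 8.96 ± 0.23 in psoas and 9.23 ± 0.18 in diaphragm (SD, n = 8 each). Its difference of -0.28 ± 0.10 (SE) did not pass (adjusted p = 0.059), although it was lower in psoas in 8 of 8 animals. ACTA2, the smooth muscle actin, differed by -0.02.

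Of 15 tested ligands and receptors of vessel growth, 5 were called lower in psoas and none higher, with a median of -0.43. They were JAG1, a Notch ligand (-0.67), NOTCH4, the endothelial Notch receptor (-0.66), TEK, the angiopoietin receptor (-0.44), ANGPT2, its context-dependent ligand (-0.96), and ANGPTL4, a secreted lipase inhibitor (-1.07). TEK also stands among the 22 endothelial genes. ANGPT2 had 4 psoas arrays below 4. VEGFA, the main growth factor of endothelium, had 11.09 ± 0.19 in psoas and 11.02 ± 0.13 in diaphragm (SD, n = 8 each), with a difference of 0.06 and a 95% interval of -0.10 to 0.23 (adjusted p = 0.558). VEGFB differed by -0.14 (adjusted p = 0.439). Of 14 hypoxia response genes tested 2 were called lower and 3 higher in psoas, with a median of 0.04, equal to that of all genes.

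**Figure D3:**
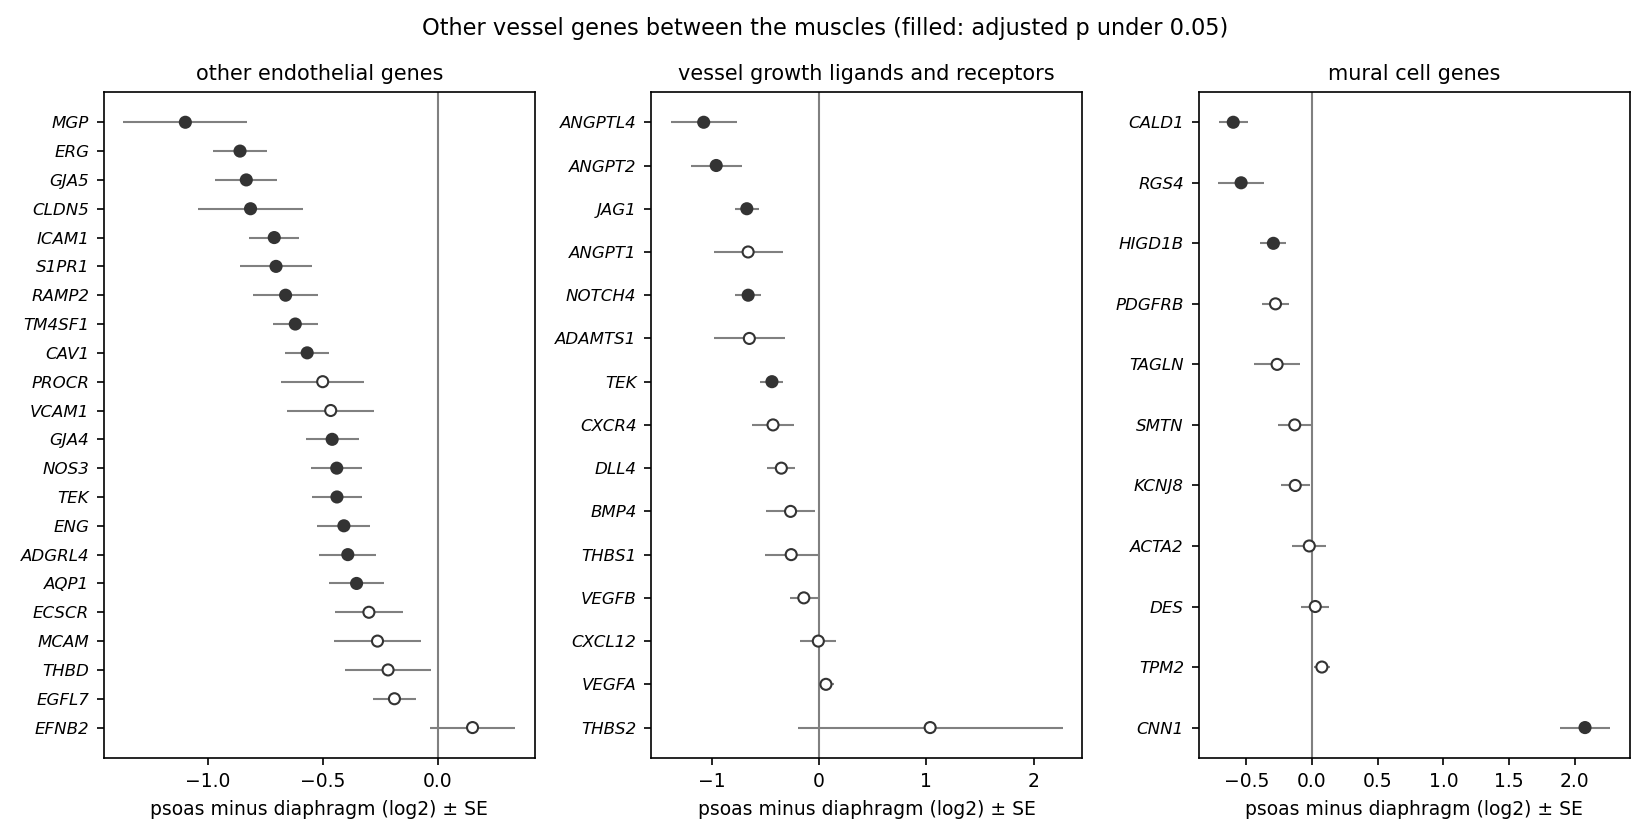
Psoas minus diaphragm difference (log2, horizontal axis, with SE) of the tested genes of 3 lists: other endothelial genes, vessel growth ligands and receptors, and mural cell genes. Filled points passed an adjusted p under 0.05; 15 of 22, 5 of 15 and 3 of 11 genes were called lower in psoas, and CNN1 was called higher.

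Some markers of other cell types were also called lower in psoas, though none of the 3 tested erythrocyte markers was. Of 13 leukocyte markers tested 9 were called lower in psoas and none higher, and their mean level per array ranged over 6.02 to 6.85 in psoas, against 6.50 to 7.86 in diaphragm. The pan-leukocyte gene PTPRC stayed below 4 in all arrays, with a maximum of 3.96. Of 10 fibroblast and progenitor markers 6 were called lower and 1 higher, with mean levels of 6.58 to 7.58 in psoas, against 7.31 to 8.14 in diaphragm. Among the 6, CD55 and COL1A2 lay below 4 in all 8 psoas arrays. They passed the filter through diaphragm alone, so that their calls were largely set by the filter. Of 6 adipocyte markers 4 were called lower, with 6.53 to 7.08 in psoas, against 7.38 to 9.04 in diaphragm. The 7 tested hepatocyte markers averaged 3.13 to 3.78 in psoas, against 3.64 to 7.93 in diaphragm. Of these, 5 lay below 4 in all 8 psoas arrays and passed the filter through diaphragm alone, so that their calls, all lower in psoas, were largely set by the filter. Of 3 erythrocyte markers tested none was called by limma and none had an unadjusted p under 0.05, with 4.80 to 5.49 in psoas, against 5.08 to 6.95 in diaphragm. Their median difference was -0.35. HBM lay below 4 in 7 psoas and 5 diaphragm arrays, and ALAS2 in 2 and 3, so these 2 are limited by background. The 6 mesothelial markers on the array all failed the filter. Of 9 slow fibre genes 6 were called lower, with 12.12 to 12.89 in psoas, against 12.87 to 13.10 in diaphragm. The 7 endothelial and pericyte genes themselves averaged 6.95 to 7.68 per psoas array, against 7.79 to 8.23 per diaphragm array. The part of other cells in the vessel gene differences was not tested.

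The step between muscles was then taken at each feeding level. Under restriction 2 of the 7 genes were called lower in psoas, PECAM1 and VWF, where 3.96% of all tested genes were. At high feeding 5 of the 7 were called, PECAM1, CDH5, ESAM, EPAS1 and RGS5, where 4.48% of all tested genes were. All 7 differences were negative at both feeding levels. PECAM1 differed by -0.79 ± 0.20 under restriction and -0.97 ± 0.20 at high feeding (SE; adjusted p = 0.0256 and 0.0115). VWF differed by -0.89 ± 0.25 under restriction, where it was called, and -0.78 ± 0.25 at high feeding, where it was not (SE; adjusted p = 0.0408 and 0.0695). CDH5 differed by -0.50 ± 0.15 under restriction and -0.90 ± 0.15 at high feeding (SE; adjusted p = 0.0512 and 0.0037). With the animal as a block, 4 genes were called under restriction, with CDH5 (adjusted p = 0.0352) and RGS5 (0.0409) added, and 6 at high feeding, with VWF added (0.0139). The shares of all genes called with the block are not given here, so a shift over all genes cannot be told apart.

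ESAM differed by -0.39 ± 0.14 under restriction and -0.65 ± 0.14 at high feeding (SE; adjusted p = 0.0986 and 0.0147). RGS5 differed by -0.54 ± 0.23 and CD34 by -0.26 ± 0.16 under restriction, and by -0.87 ± 0.23 and -0.39 ± 0.16 at high feeding (SE). Of these 4 values only that of RGS5 at high feeding was called (adjusted p = 0.0308). EPAS1 showed the widest gap between feeding levels. Its difference was -0.14 ± 0.32 under restriction and -1.23 ± 0.32 at high feeding (SE), not called in the restricted animals (adjusted p = 0.83) and called in the high-fed (0.0342). Without animal 7, the EPAS1 difference at high feeding was -0.72. The counts depended on single animals: 1 gene was called at high feeding without animal 4 and 2 without animal 7, and none under restriction without animal 2 or without animal 3. The shares of all genes called in these smaller fits are not given here.

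**Figure D4:**
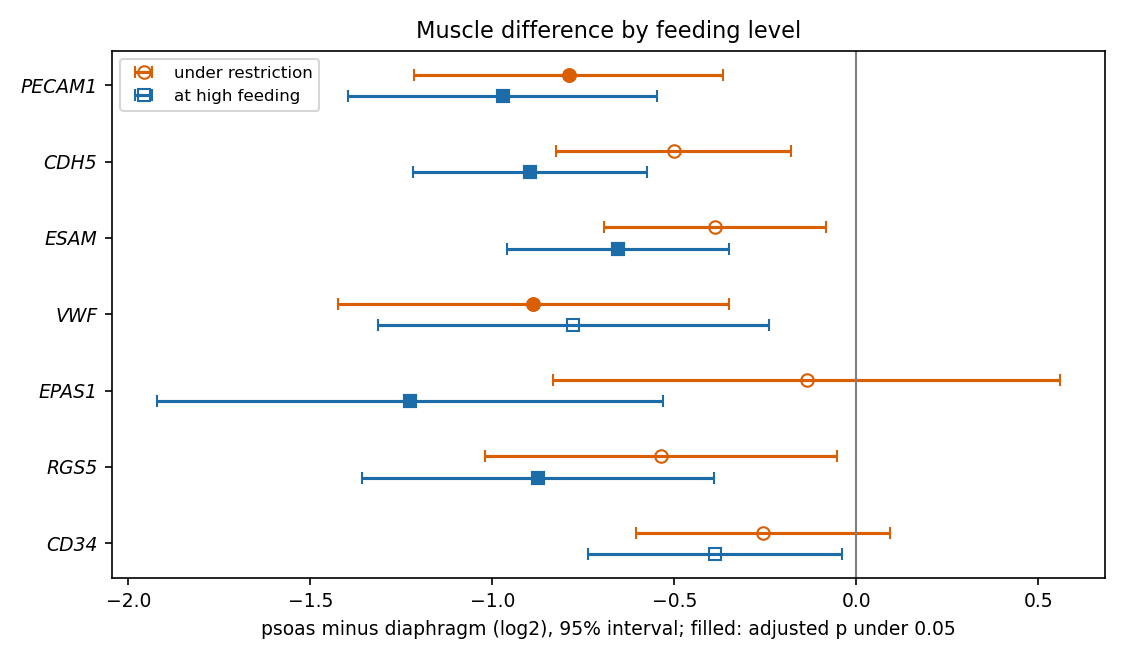
Psoas minus diaphragm difference (log2, horizontal axis) of the 7 genes with its 95% interval, under restriction (circles) and at high feeding (squares); filled points passed an adjusted p under 0.05. The intervals of the feeding levels overlap for all 7 genes, and that of EPAS1 under restriction reaches from -0.83 to 0.56.

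Whether the step differed between feeding levels was tested on the difference of each animal. None of the 7 genes was called by limma, and 1 of 7 had an unadjusted p under 0.05, against 5.16% of all tested genes, of which 0% were called. In EPAS1 the restricted animals had -0.19, -0.29, -0.02 and -0.04, against -0.36, -0.97, -0.83 and -2.74 in the high-fed animals. The restricted minus high difference was 1.09 ± 0.43 (SE; unadjusted p = 0.0322, adjusted p = 0.807 in limma), with a 95% interval of 0.12 to 2.06, and it was 0.58 without animal 7. The high-fed animals 4, 6 and 7 and the restricted animal 8 had the lower actin difference in diaphragm, and the part of RNA quality in this value was not tested. In CDH5 it was 0.40 ± 0.19 (SE; adjusted p = 0.807), with -0.03 to 0.82. Its second probe set had -0.26, 0.01, 0.45 and 0.87 in restricted animals, against -1.84, -0.77, -0.52 and -0.03 in high-fed animals, given in order of size, and a difference of 1.06 ± 0.35 (SE; adjusted p = 0.761). The remaining genes lay between -0.11 for VWF and 0.34 for RGS5. Of the 22 other endothelial genes none was called in this test by limma, and 2 had an unadjusted p under 0.05. Of those 22, 4 were called lower in psoas under restriction and 11 at high feeding.

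Feeding level itself gave no call in the 7 genes. On the mean of both muscles, restricted minus high differences ran from -0.18 to 0.15, none of the 7 was called by limma, and none had an unadjusted p under 0.05, against 13.6% of all tested genes. In psoas the differences ran from -0.12 to 0.38, again with none called and none at an unadjusted p under 0.05, against 12.4% of all tested genes. CDH5 in psoas had 8.22, 8.39, 8.24 and 8.40 in restricted animals, against 8.01, 7.66, 8.39 and 7.81 in high-fed animals. Animal 6 was the high-fed animal among the restricted values, and the difference of 0.35 ± 0.16 (SE) was not called (adjusted p = 0.474).

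In diaphragm none of the 7 was called, and 1 of 7, EPAS1, had an unadjusted p under 0.05, against 9.23% of all tested genes. EPAS1 had 6.14, 6.16, 5.76 and 5.97 in restricted animals 2, 3, 5 and 8, against 6.53, 6.99, 6.68 and 6.68 in high-fed animals 1, 4, 6 and 7. All restricted arrays lay below all high-fed arrays, as they did in 3.61% of all tested genes. The difference of -0.71 ± 0.13 (SE), or 1.64-fold lower under restriction, had an adjusted p of 0.472 in limma. The actin difference was 3.996 ± 0.435 in restricted and 3.624 ± 0.443 in high-fed diaphragms (SD, n = 4 each). Within the animals of higher actin difference EPAS1 had 5.76 to 6.16 in the restricted 2, 3 and 5, against 6.53 in the high-fed animal 1. Within those of lower actin difference it had 5.97 in the restricted animal 8, against 6.68 to 6.99 in the high-fed 4, 6 and 7. Each set holds a single animal at 1 of the feeding levels, and the part of RNA quality in this difference was not tested.

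The other genes did not pass in diaphragm either. VWF averaged 8.69 ± 0.41 in restricted and 8.69 ± 0.46 in high-fed diaphragms (SD, n = 4 each), a difference of -0.01 with a 95% interval of -0.64 to 0.63. PECAM1 averaged 9.12 ± 0.19 in restricted and 9.39 ± 0.28 in high-fed diaphragms, a difference of -0.27 (adjusted p = 0.61) that was -0.15 without animal 7. The second set of PECAM1 had 7.96, 8.60, 8.22 and 8.50 in restricted animals, against 8.68, 8.86, 8.64 and 9.05 in high-fed animals, without overlap. Its difference was -0.49 ± 0.17 (SE; unadjusted p = 0.0221, adjusted p = 0.494 in limma). The second set of CDH5 differed by -0.79 ± 0.34 (SE; unadjusted p = 0.0514, adjusted p = 0.518 in limma) and that of ESAM by -0.48 ± 0.20 (SE; unadjusted p = 0.0446, adjusted p = 0.511 in limma), with overlap between the feeding levels in both. These were the 2 probe sets whose diaphragm values split by the actin difference. Of the 22 other endothelial genes none was called by feeding level in diaphragm by limma, and 5 had an unadjusted p under 0.05, with a median difference of -0.09. In psoas none was called and none had an unadjusted p under 0.05, with a median of 0.06.

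Over the 4 combinations of muscle and feeding level, both psoas groups averaged below both diaphragm groups for all 7 genes. PECAM1 averaged 8.33 ± 0.06 in restricted and 8.42 ± 0.47 in high-fed psoas (SD, n = 4 each), which is within the spread. CDH5 averaged 8.31 ± 0.09 in restricted and 7.96 ± 0.32 in high-fed psoas, against 8.81 ± 0.19 in restricted and 8.86 ± 0.15 in high-fed diaphragm. VWF averaged 7.80 ± 0.29 in restricted and 7.92 ± 0.47 in high-fed psoas. Between the 2 feeding levels of 1 muscle, the ranges of these 3 genes overlapped. ESAM averaged 6.25 ± 0.13 in restricted and 6.05 ± 0.20 in high-fed psoas, against 6.64 ± 0.23 in restricted and 6.70 ± 0.19 in high-fed diaphragm. RGS5 averaged 10.60 ± 0.20 in restricted and 10.36 ± 0.54 in high-fed psoas, against 11.14 ± 0.17 in restricted and 11.23 ± 0.28 in high-fed diaphragm. For EPAS1 the restricted psoas, at 5.87 ± 0.09, and restricted diaphragm, at 6.01 ± 0.19, were neighbours within the spread, and the high-fed diaphragm stood above them at 6.72 ± 0.19. The high-fed psoas of EPAS1, at 5.49 ± 1.04, rests on animal 7. For CD34 the groups were 5.10 ± 0.17 in restricted and 5.14 ± 0.16 in high-fed psoas, against 5.36 ± 0.19 in restricted and 5.53 ± 0.33 in high-fed diaphragm.

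Sex gave no call in the 7 genes either. On the animal means of both muscles, none was called by limma and none had an unadjusted p under 0.05, where 0.109% of all tested genes were called and 8.97% had an unadjusted p under 0.05. VWF averaged 8.44 ± 0.42 in females and 8.11 ± 0.19 in males (SD, n = 4 each), with a difference of 0.33 and a 95% interval of -0.16 to 0.83, and the difference was 0.58 without animal 5. EPAS1 averaged 5.82 ± 0.40 in females and 6.23 ± 0.24 in males, a difference of -0.41 with -0.88 to 0.07, which was -0.17 without animal 7, a female. The step between muscles was not called to differ by sex in any of the 7, and 1 of 7, CD34, had an unadjusted p under 0.05, against 9.52% of all tested genes. CD34 had psoas minus diaphragm differences of -0.18, -0.27, -0.04 and -0.01 in females, against -0.79, -0.32, -0.52 and -0.45 in males. The female minus male difference was 0.39 ± 0.14 (SE; adjusted p = 0.454 in limma).

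Among the 7 genes, values over the animals of 1 muscle were mostly related in the same direction. Of 42 pairs of genes, 21 in each muscle, Pearson correlations were positive in 19 of 21 pairs in psoas, with a median of 0.39, and in 16 of 21 pairs in diaphragm, with a median of 0.28. None passed an exact two-sided permutation test after Benjamini-Hochberg adjustment over the 42 pairs, the smallest adjusted p being 0.117. In psoas ESAM and RGS5 had r = 0.895 and Spearman's rho = 0.738 over 8 animals (exact permutation p = 0.0061 and 0.0458; adjusted 0.117 and 0.385). Without the 2 animals farthest from the median of ESAM, r was 0.486. All values of an array share its RNA and its normalization.

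Genes outside the 7 whose 8 animal differences lay nearest to those of each gene were found by root mean square distance over 4564 tested genes. For ESAM they were KIAA1551, RGCC and TEK, at distances of 0.136, 0.168 and 0.172 log2 units. For CDH5 they were SLA-3, SLA-2 and RALB at 0.155 to 0.164, and the SLA genes are class I histocompatibility genes of near-identical sequence that probes may not separate. For PECAM1 they were TAGLN2, SLA-DQA1 and ALCAM at 0.189 to 0.260, and for RGS5 ALCAM, ARAP3 and SLA-DQB1 at 0.134 to 0.181. For VWF they were GNG11, SAT1 and CLEC2D at 0.211 to 0.257. For CD34 they were HIGD1B, SMARCA2 and AGPAT3 at 0.147 to 0.160. EPAS1 had no gene as close, with PPP1R16B nearest at 0.443, then ALDOC at 0.479 and MAP2K6 at 0.508. Of the 21 places, TEK and HIGD1B are genes of the vessel lists and SLA-DQA1 and SLA-DQB1 of the leukocyte list.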

How the data were processed

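Total RNA of frozen psoas major and diaphragm was hybridised as biotinylated cRNA to Affymetrix porcine arrays, per the labels' protocols. The authors deposited 1 log2 value per probe set and array, and the submitters' processing notes name GCRMA. The version is not stated, nor is joint processing of the 16 arrays. GCRMA equalises arrays and compresses values near the floor. No further scaling was applied. Of 24123 probe sets, 10099 had 1 gene symbol in the platform annotation, 198 several and 13826 none.

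Probe sets reaching 4 in 4 or more arrays, without 124 control sets, were tested in R 4.3.3 (limma 3.58.1, lmFit and eBayes) with sex and feeding level as covariates and Benjamini-Hochberg adjustment over 11467 probe sets. The probe set with the highest mean stood for a gene. Muscles were compared on 16 arrays, feeding levels and sexes on 8 animal means or 8 arrays of 1 muscle, and dependence of the muscle step on either on 8 animal differences. The number of arrays limits the precision. The fit was tested on simulated data.

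Arrays were paired by the animal numbers of the labels. Residuals of the 2 muscles of an animal correlated at 0.0724 to 0.257 over probe sets.

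All probe sets of the 7 genes are named. From each other list up to 4 called genes of smallest adjusted p are named; ANGPTL4, PDGFRB, ACTA2, COL1A2, VEGFA, VEGFB, KDR, FLT1 and PTPRC were chosen after their values were seen. The genes and lists were chosen with earlier results of these data known.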

Additional observations from a re-analysis of the deposited data

Results flagged for a closer look

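Arrays far from the rest of their group were looked for in 70 groups of 4 or 8 values with Dixon's test, in which chance alone marks about 1 in 20, or 3.5 of 70, and 6 were marked. EPAS1 in psoas had 3.94 in animal 7, where the next lowest of the 8 arrays had 5.74 and the next lowest of the 4 high-fed arrays 5.85, so that it was marked in both groups. The EPAS1 difference between psoas and diaphragm of that animal, at -2.74, was marked as well, the next being -0.97. The psoas array of animal 7 also had the highest 3′ minus 5′ differences of the psoas arrays for actin (3.85), EF1a (1.503) and GAPDH (-0.04), and its part in the EPAS1 value was not tested. The second probe set of ESAM had 4.75 in the psoas of animal 5, with 5.61 next among all 8 psoas arrays and 5.92 next among the 4 restricted ones, and was marked in both groups. CD34 had 4.90 in the psoas of animal 4, where the other 3 high-fed psoas arrays had 5.21 to 5.24.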

How the results depend on the processing

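Between the muscles 6 of the 7 genes were called, and 5 to 7 without any 1 animal, but 1 with animals 4, 6, 7 and 8 alone. In that last fit PECAM1, CDH5, ESAM and RGS5 differed by -0.90, -0.76, -0.65 and -0.70 (adjusted p = 0.0952, 0.0595, 0.0703 and 0.166). Of the other endothelial genes 15 of 22 were called, 12 to 15 without any 1 animal, 4 with animals 4, 6, 7 and 8 alone and 8 with animals 1, 2, 3 and 5 alone; this count and the fit on animals 1, 2, 3 and 5 were added after seeing the data. Both fits have 4 animals in place of 8. At high feeding 5 of 7 genes were called, 1 to 5 without any 1 animal (3 without animal 2 or 3, 1 without animal 4, 2 without animal 7), and 3 with no filter. Under restriction 2 of 7 were called, 0 to 2 without any 1 animal (0 without animal 2 or 3, 1 without animal 5 or 8), 0 with no filter, and 4 with the animal as a replicate block. Without a filter more probe sets enter the adjustment. The cause of the other shifts was not tested. The shares of all probe sets called without 1 animal, without a filter or with the block are not given here. With the block the count between the muscles was 6, as without it, and that at high feeding was 6 against 5. The 6 results on feeding, sex and the dependence of the muscle step gave 0 called genes under each alternative run. In tests of single genes under alternatives, 419 kept their direction and side of the threshold, 46 lost and 13 gained the call, and none changed sign. CD34 lost its call between the muscles under 13 of 19 alternatives. Probe sets near 4 are limited by background, and the array numbers limit all intervals.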
